A study of Mus musculus with 12 samples.

Results

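The 10 genes described here encode NF-kB subunits, inhibitors of NF-kB and genes that NF-kB switches on in feedback, and they were taken by name from the 12975 genes counted in the files. All 10 names were found. They are Rela, Nfkb1, Relb and Nfkb2 (subunits), Nfkbia, Nfkbiz and Bcl3 (members of the IkB family), Tnfaip3 and Zc3h12a (feedback enzymes) and Icam1 (an adhesion molecule that is a standard NF-kB target). All are protein-coding genes, annotated (GENCODE M21, GRCm38) on the plus strand for Rela at chr19:5637483-5648130, Nfkb2 at chr19:46304320-46312385, Icam1 at chr9:21015985-21028817 and on the minus strand for Nfkb1 at chr3:135584655-135691547, Relb at chr7:19606217-19629438, Bcl3 at chr7:19808462-19822770, Nfkbia at chr12:55489410-55492647, Nfkbiz at chr16:55811375-55838899, Tnfaip3 at chr10:19000910-19015657, Zc3h12a at chr4:125118423-125127840, with counts taken at their 3′ ends.

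Ribosome-bound RNA had been pulled down from the small intestinal muscularis (both muscle layers with the attached myenteric plexus) of 6 PLPCreERT2 Rpl22HA mice, strain B6J.129(Cg)-Rpl22tm1.1Psam/SjJ. In these animals Cre, under a promoter directed to glial cells, is activated by tamoxifen and switches the ribosomal protein Rpl22 to a form with an HA tag, so that anti-HA antibody collects ribosomes from any cell in which this promoter was active. All mice, controls included, received 2 intraperitoneal injections of 100 µl tamoxifen at 15 mg/ml from 10 to 12 weeks of age and were killed 3 to 4 weeks after the first one. Tissue was taken from naive mice (T0, n = 3, animals 1, 2 and 4) or 3 h after surgical manipulation of the small bowel, which inflames its muscle coat (T3, n = 3, animals 1, 3 and 4), and each homogenate was divided between anti-HA antibody (HA) and a control IgG1 that recognises no tag (IgG). A shared number at T0 and T3 belongs to different mice.

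NF-kB is a family of paired transcription factors. In resting cells the pairs, most often RelA with p50, the product of Nfkb1, are held in the cytoplasm by IkB proteins such as IkBα, the product of Nfkbia. Signals from cytokines and tissue damage lead to the destruction of IkBα, the factor enters the nucleus, and among the genes it switches on are those for IkBα itself, for the deubiquitinase A20 (Tnfaip3) and for the RNase regnase-1 (Zc3h12a), which limit the response. RelB and p52, the product of Nfkb2, form the slower noncanonical branch. The nuclear IkB proteins Bcl-3 and IkBζ (Nfkbiz) act on p50 and p52 at DNA and help to switch on later genes. In glial cells NF-kB is known mainly from astrocytes, where it drives chemokine and cytokine genes after injury.

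NF-kB binds DNA at kB motifs, and the promoter stretches that hold such letters are printed here. RefSeq windows of 300 bases (250 before to 50 after the annotated start, GRCm38.p6) were found for 7 of the 10 genes, and not for Nfkbiz, Nfkb1 and Relb. A 10-base kB motif, searched on both strands and its own reverse complement, occurred in 4 of these 7, in Nfkbia, Tnfaip3, Bcl3 and Nfkb2, and was absent from the windows of Rela, Icam1 and Zc3h12a. For each of the 4 genes, 150 bases are given 5′ to 3′ on the strand of the gene, from 130 before the start to 20 from it on, with the kB motif in capitals: Nfkbia at chr12:55492628-55492777 (minus strand), Tnfaip3 at chr10:19015391-19015540 (minus strand), Bcl3 at chr7:19822736-19822885 (minus strand) and Nfkb2, first of its 3 annotated starts, at chr19:46304607-46304756 (plus strand).
Nfkbia: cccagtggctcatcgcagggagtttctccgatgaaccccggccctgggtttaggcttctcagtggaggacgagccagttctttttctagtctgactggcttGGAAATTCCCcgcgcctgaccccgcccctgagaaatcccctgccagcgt
Tnfaip3: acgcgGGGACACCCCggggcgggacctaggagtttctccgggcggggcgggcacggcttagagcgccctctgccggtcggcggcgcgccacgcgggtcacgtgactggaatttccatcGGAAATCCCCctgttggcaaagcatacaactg
Bcl3: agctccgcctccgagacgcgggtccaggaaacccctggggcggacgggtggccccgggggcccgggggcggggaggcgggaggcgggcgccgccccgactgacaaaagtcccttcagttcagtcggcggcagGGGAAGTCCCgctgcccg
Nfkb2: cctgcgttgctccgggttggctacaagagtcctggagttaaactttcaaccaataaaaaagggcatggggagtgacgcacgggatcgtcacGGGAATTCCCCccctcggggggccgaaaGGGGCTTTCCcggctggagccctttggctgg
In Nfkbia the motif GGAAATTCCC began 29 bases before the start. Tnfaip3 held a copy 12 bases before the first of its 2 annotated starts and another further upstream. The window of its other start held none. Bcl3 held a copy that began at base 2 after its start, and the first Nfkb2 window held overlapping copies and a separate one. A second form, GGGNN followed by TTTCC, with N for any base, was also searched on both strands. It is not a subset of the kB motif, GGRRNNYYCC (R is A or G, Y is C or T), which takes only A or G where the second form has its first N. The second form was present in the windows of 3 genes, Nfkbia, Tnfaip3 and Nfkb2. Over all 27025 genes with a window, 12.6% held the kB motif and 1.89% held the second form. Among the genes tested between T3 and T0 in HA, the kB motif was in 18.9% of those that were higher, 15% of those that were lower and 16.7% of those not called. A match says only that these letters are in the window.

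Library totals were 1221788 to 2870591 UMI counts (unique molecular identifiers, each standing for 1 captured RNA molecule) in HA and 88136 to 1289833 in IgG, and lowest in IgG at T3 (88136 to 248522). Levels are given as CPM, counts scaled to the same total in each library. Where no count was found, up to 3 remain possible, or 1.05 to 34.0 CPM depending on the library, and intervals and limits of this kind cover counting error only. Differences were tested by edgeR's quasi-likelihood test with p-values adjusted over all genes of the comparison (adjusted p, threshold 0.05), and fold changes are on the log2 scale with a standard error (SE). Rpl22, the tagged gene, lay at 61.5 to 93.7 CPM in HA and 10.9 to 34.0 CPM in IgG. The pull-down held glial RNA: 14 glia markers summed to 3966 to 4968 CPM in HA at T0 and 5127 to 5544 CPM at T3, against 244 to 376 CPM and 306 to 1566 CPM in IgG. In naive tissue 12 of the 13 tested were called higher in HA than in IgG, against 16% of all genes tested. At T3 it was 8 of 13, against 11.8%. The median log2 difference of these markers was 4.19 at T0 and 2.83 at T3. The higher sum at T3 in HA came with Gfap, which was at 95.5 to 129.8 CPM at T0 and at 1515 to 1959.7 CPM at T3 (log2 change 4.12, SE 0.20, adjusted p = 3.63e-12); the other 13 markers together summed to 3870.5 to 4839 CPM in HA at T0 and 3199.9 to 3872 CPM at T3. RNA of other cells was also there, with 10 smooth muscle markers at 17229 to 26193 CPM in HA at T0.

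The first question was how the genes stood 3 h after manipulation in the HA pull-down. All 10 were higher at T3, and for each of them the lowest T3 library lay above the highest T0 library. Of 9441 genes tested, 33.8% were called in either direction and 18.7% were called higher, and 15.6% were higher without overlap. The 10 genes had a median log2 change of 2.95 against -0.02 over all tested genes. Fold changes ran from 2.17 for Nfkb1 to 27.1 for Nfkbia, and all 10 were called in all 13 alternative fits. With library totals as the scaling, the median of all genes fell by 0.29 on the log2 scale, the median of the 10 genes was 2.68, and 31.1% of all calls were higher in place of 55.4%. In these bulk samples more cells of a type and more RNA per cell cannot be told apart.

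Among the subunits, Rela rose most evenly. Rela, which encodes the main activating subunit, measured 96.4, 88.3 and 92.7 CPM in HA at T0 and 511, 427 and 459 CPM at T3. Every T3 library was far above every T0 library, and the log2 change was 2.59 (SE 0.18, adjusted p = 5.56e-10). Its partner gene Nfkb1 measured 37.6, 39.1 and 53.3 CPM at T0 and 57.3, 98.3 and 77.9 CPM at T3. The gap between its groups was narrow, with animal 4 at T0 close under animal 1 at T3, and the log2 change of 1.12 (SE 0.22, adjusted p = 7.11e-04) was the smallest of the 10. Relb, the activating subunit of the noncanonical branch, measured 21.1, 35.2 and 19.2 CPM at T0 and 99.0, 145 and 111 CPM at T3 (log2 change 2.53, SE 0.25, adjusted p = 1.38e-07). Nfkb2, which encodes its partner p52, measured 71.8, 86.6 and 52.6 CPM at T0 and 289, 362 and 325 CPM at T3 (log2 change 2.48, SE 0.21, adjusted p = 1.36e-08). Both noncanonical genes were thus separated between times by a wide gap in HA. The counted window at the 3′ end of Nfkb2 overlaps the gene Psd on the opposite strand, and the use of strand in counting was not given in the sources used here.

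The IkB family held the largest change. Nfkbia measured 162, 165 and 114 CPM in HA at T0 and 3730, 2887 and 3392 CPM at T3, from 423, 295 and 327 counts to 4557, 4318 and 4357 counts. The times were again far apart, and with a log2 change of 4.76 (SE 0.22, adjusted p = 1.43e-12) Nfkbia was 44th of the 9441 genes by size of increase. Nfkbiz, which encodes the nuclear IkBζ, measured 9.60, 7.82 and 8.36 CPM at T0 and 83.5, 80.9 and 49.8 CPM at T3 (log2 change 3.30, SE 0.27, adjusted p = 6.95e-09). Bcl3, the nuclear partner of p50 and p52, measured 13.4, 22.4 and 11.8 CPM at T0 and 133, 195 and 130.0 CPM at T3 (log2 change 3.57, SE 0.26, adjusted p = 2.12e-09). Nfkbiz was tight at T0 and low in animal 4 at T3, and Bcl3 was highest in animal 2 at T0 and in animal 3 at T3.

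The feedback enzymes and Icam1 started from few counts. Tnfaip3, which encodes A20, had 4, 9 and 6 counts in HA at T0 and 39, 50 and 30 counts at T3, or 1.54, 5.03 and 2.09 CPM and 31.9, 33.4 and 23.4 CPM. Its log2 change was 3.70 (SE 0.39, adjusted p = 2.76e-07), and its counts were high enough for the test only at T3. Zc3h12a, which encodes the RNase regnase-1, measured 7.68, 8.38 and 3.48 CPM at T0 and 13.1, 30.1 and 28.0 CPM at T3 (log2 change 2.17, SE 0.39, adjusted p = 2.95e-04), and animal 1 at T3 was well below the other two. Icam1, the adhesion molecule that leukocytes bind, measured 11.5, 7.26 and 9.75 CPM at T0 and 72.8, 116 and 65.4 CPM at T3 (log2 change 3.39, SE 0.28, adjusted p = 7.16e-09). An antisense transcript, Gm47079, overlaps the counted window of Icam1 on the opposite strand and has no row in the count table.

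**Figure D1:**
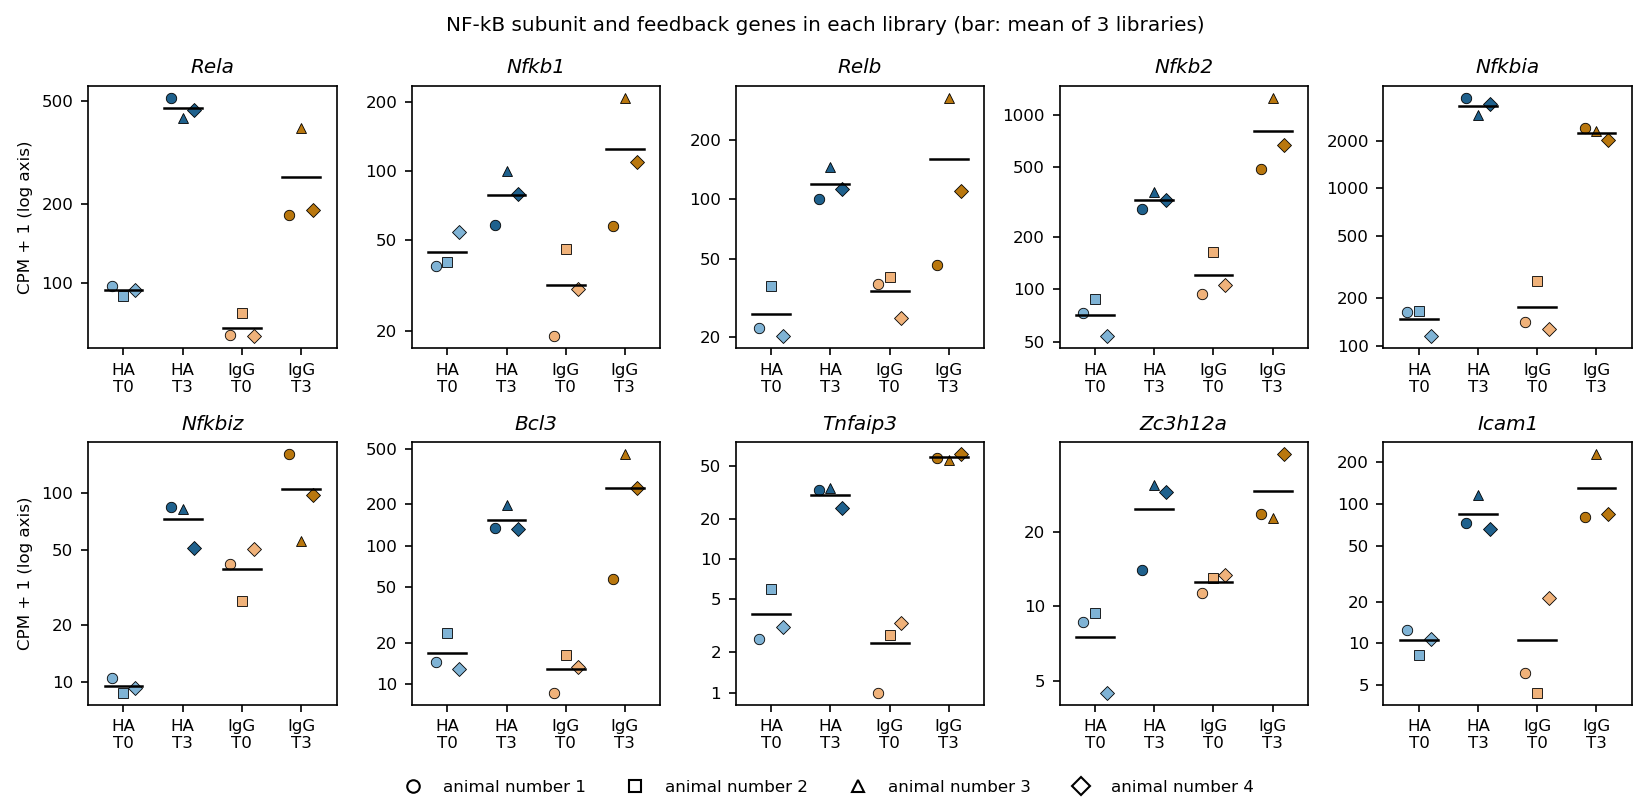
CPM plus 1 on a log axis for each of the 10 genes in the 12 libraries, with points for single libraries shaped by animal number (numbers 1 and 4 are different mice at T0 and T3) and a bar at the mean of 3 libraries. In all 10 panels the T3 points lie above the T0 points in HA and in IgG, as for Nfkbia with 114 to 165 CPM at T0 and 2887 to 3730 CPM at T3 in HA.

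The same comparison in the IgG pull-down gives the background of RNA that came down without the tag. In IgG 8 of the 9 genes that could be tested were higher at T3. A gene was tested if its counts were high enough at either time. Tnfaip3, Bcl3 and Icam1 were under that level in every IgG T0 library and were tested through T3 alone. The count of calls and the median below thus include genes that entered by their T3 level. All 10 were without overlap between the times, among them the untested Zc3h12a, with 2, 2 and 10 counts at T3. Of 5219 genes tested in IgG, 5.46% were called in either direction, 4.43% higher and 1.03% lower, and 13.4% were higher without overlap. The median log2 change of the 9 genes was 2.71, against -0.02 over all tested genes. These 8 genes therefore rose in the control pull-down as well as in HA.

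In IgG, Nfkbia measured 142, 257 and 127 CPM at T0 and 2417, 2293 and 2028 CPM at T3 (log2 change 3.66, SE 0.34, adjusted p = 1.35e-05). These levels were close to those in HA at T0 and of the same order at T3. Nfkb2 measured 92.7, 163 and 105 CPM at T0 and 488, 1249.7 and 672 CPM at T3 (log2 change 2.71, SE 0.37, adjusted p = 3.82e-04). Rela measured 61.8, 75.4 and 61.2 CPM at T0 and 182, 391 and 189 CPM at T3 (log2 change 1.88, SE 0.35, adjusted p = 0.00445). Animal 3 had the highest IgG level of both subunit genes at T3.

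Bcl3 and Icam1 were spread widely between IgG libraries at T3. Bcl3 measured 7.73, 15.4 and 12.4 CPM at T0 and 56.7, 456 and 262 CPM at T3 (log2 change 4.35, SE 0.59, adjusted p = 5.04e-04). Icam1 measured 5.15, 3.43 and 20.2 CPM at T0 and 79.4, 228 and 84.5 CPM at T3 (log2 change 3.35, SE 0.61, adjusted p = 0.00386). At T0 only animal 4 had more than 2 Icam1 counts in IgG, with 26, and without that library the log2 change was 4.75.

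Tnfaip3 had 0, 1 and 3 counts in IgG at T0, all at or under the floor, and 5, 5 and 15 counts at T3. Scaled to the library totals, its summed counts were 33.0 times higher at T3 (95% exact counting interval 11.4 to 130.4), and edgeR gave a log2 change of 4.84 (SE 0.65, adjusted p = 3.28e-04). Relb measured 36.1, 39.4 and 24.0 CPM at T0 and 45.4, 326 and 109 CPM at T3 (log2 change 2.23, SE 0.54, adjusted p = 0.0255). The call was lost without any of 4 libraries (adjusted p 0.0758 to 0.138), IgG T0 of animals 2 and 4 and IgG T3 of animals 3 and 4, and without animal 3 at T3 its log2 change was 1.41. Nfkb1 measured 18.0, 44.6 and 29.5 CPM at T0 and 56.7, 206 and 109 CPM at T3 (log2 change 1.95, SE 0.47, adjusted p = 0.0258). Its call was lost without any of 5 libraries (adjusted p 0.0636 to 0.114), the 3 IgG T0 libraries and IgG T3 of animals 3 and 4.

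Nfkbiz and Zc3h12a were the genes without a call in IgG. Nfkbiz measured 41.2, 25.7 and 49.6 CPM in IgG at T0 and 159, 54.3 and 96.6 CPM at T3 (log2 change 1.34, SE 0.45, adjusted p = 0.107, 0.0475 in the fit of all 12 libraries). The T3 libraries were higher, but animal 3 at T3, with 5 counts, was close to animal 4 at T0. Zc3h12a had 4, 7 and 16 counts at T0 and 2, 2 and 10 counts at T3, too few for the test, which is 10.3 to 12.4 CPM and 21.7 to 40.2 CPM. The edgeR fits with other filters or with all 12 libraries did test it and gave adjusted p of 0.186 to 0.363.

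**Figure D2:**
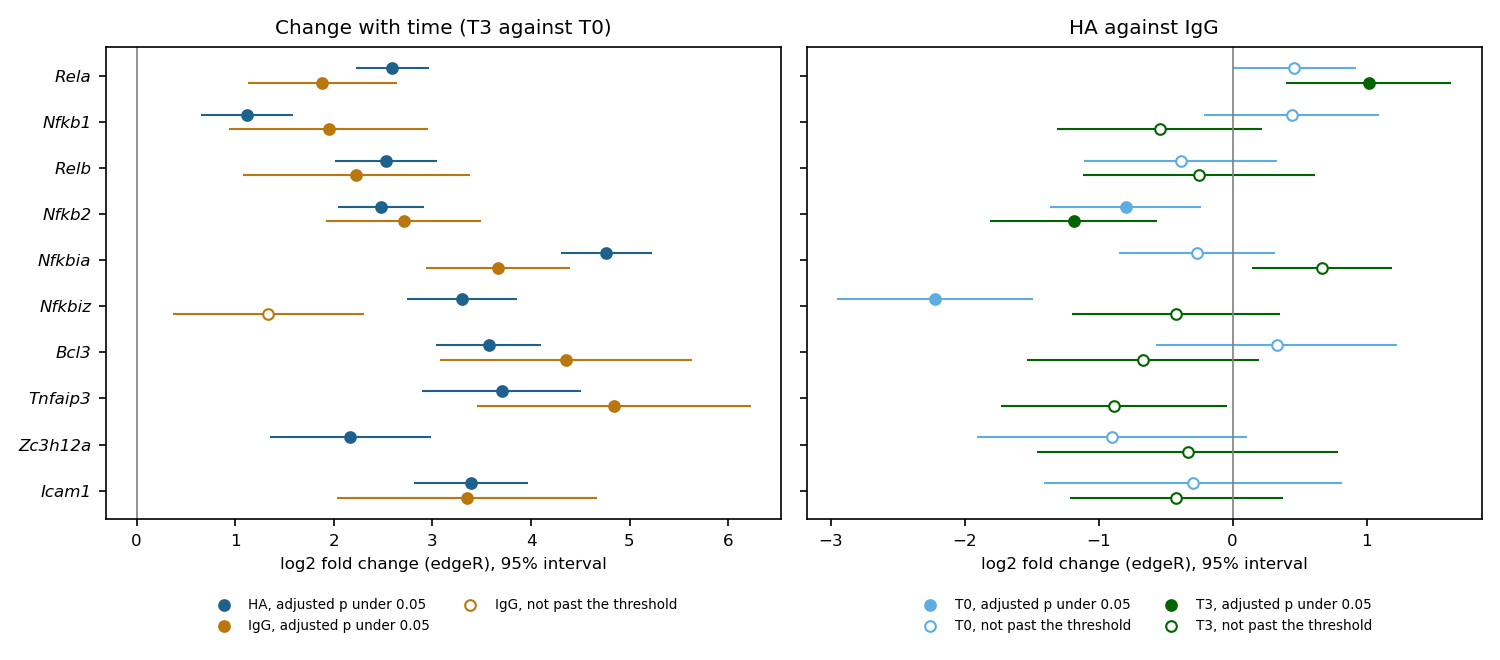
Left, log2 change from T0 to T3 in HA and in IgG, and right, log2 difference of HA from IgG at T0 and at T3, for each gene with the 95% interval from edgeR, filled where the adjusted p was under 0.05 (Zc3h12a in IgG and Tnfaip3 between pull-downs at T0 were not tested). All changes with time lie right of 0, from 1.12 (Nfkb1 in HA) to 4.84 (Tnfaip3 in IgG), while most differences between pull-downs have intervals that span 0.

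The next question was whether the HA pull-down held more of these RNAs than IgG in naive tissue. At T0 none of the 9 genes tested was higher in HA, and 2 were lower, Nfkbiz and Nfkb2, among 9823 genes of which 30.3% were called, 16% higher and 14.4% lower. Without regard to the test, 1 gene was higher and 3 were lower in HA without overlap, against 24.7% and 20.1% of the genes tested. Tnfaip3 was too low for the test. Nfkbiz was lower in HA in each animal, with HA levels of 0.233, 0.304 and 0.168 of the IgG levels in animals 1, 2 and 4 (log2 difference -2.22, SE 0.34, adjusted p = 2.85e-04), and the call stood in all 13 alternatives. For Nfkb2 the HA levels were 0.774, 0.532 and 0.503 of the IgG levels (log2 difference -0.80, SE 0.26, adjusted p = 0.0333). That call was lost in 6 alternatives, among them the fits without HA T0 of animal 1 (0.0729), HA T0 of animal 4 (0.143), IgG T0 of animal 2 (0.176) and IgG T0 of animal 4 (0.0500). Rela lay at 1.56, 1.17 and 1.51 times the IgG level, higher in each animal and without overlap, but past no threshold (log2 difference 0.46, SE 0.21, adjusted p = 0.117). For Nfkbia the difference was -0.27 (95% interval -0.85 to 0.32), with HA above IgG in animal 1 and below it in animals 2 and 4.

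At T3, 1 of the 10 genes was higher in HA and 1 was lower, of 7200 genes tested with 21.9% called, 11.8% higher and 10.2% lower. There were 2 genes higher and 2 lower without overlap, against 19.4% and 16.4%. Rela was the higher one, at 2.81, 1.09 and 2.43 times the IgG level in animals 1, 3 and 4 (log2 difference 1.02, SE 0.29, adjusted p = 0.0184). The call was lost without HA T3 of animal 1 (0.0838), animal 3 (0.0578) or animal 4 (0.0787). Nfkb2 was lower, at 0.592, 0.289 and 0.483 of the IgG level (log2 difference -1.19, SE 0.30, adjusted p = 0.00768), and without IgG T3 of animal 3 its difference was -0.70 (adjusted p = 0.0559). Nfkb2 was therefore below IgG in all 6 animals and Rela above it in all 6, though by only 1.09 times in animal 3 at T3. Nfkbia lay at 1.54, 1.26 and 1.67 times the IgG level, without overlap between the groups (log2 difference 0.67, SE 0.25, adjusted p = 0.0613), and with the animal as a block, which pairs the 2 pull-downs of a mouse, it passed the threshold (0.67, adjusted p = 0.0452). It was called in 8 of 13 alternatives, among them DESeq2 (adjusted p = 0.00881) and the fit to the 12 libraries together (0.00895), and its adjusted p over all 13 ran from 0.00881 to 0.218. Nfkbiz, low in HA at T0, lay at 0.526, 1.49 and 0.516 of the IgG level at T3 (log2 difference -0.42, 95% interval -1.20 to 0.35). The other 6 genes had log2 differences of -0.89 (Tnfaip3) to -0.25 (Relb), none past the threshold, and without IgG T3 of animal 1 Bcl3 was called lower (-0.97, adjusted p = 0.0262).

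**Figure D3:**
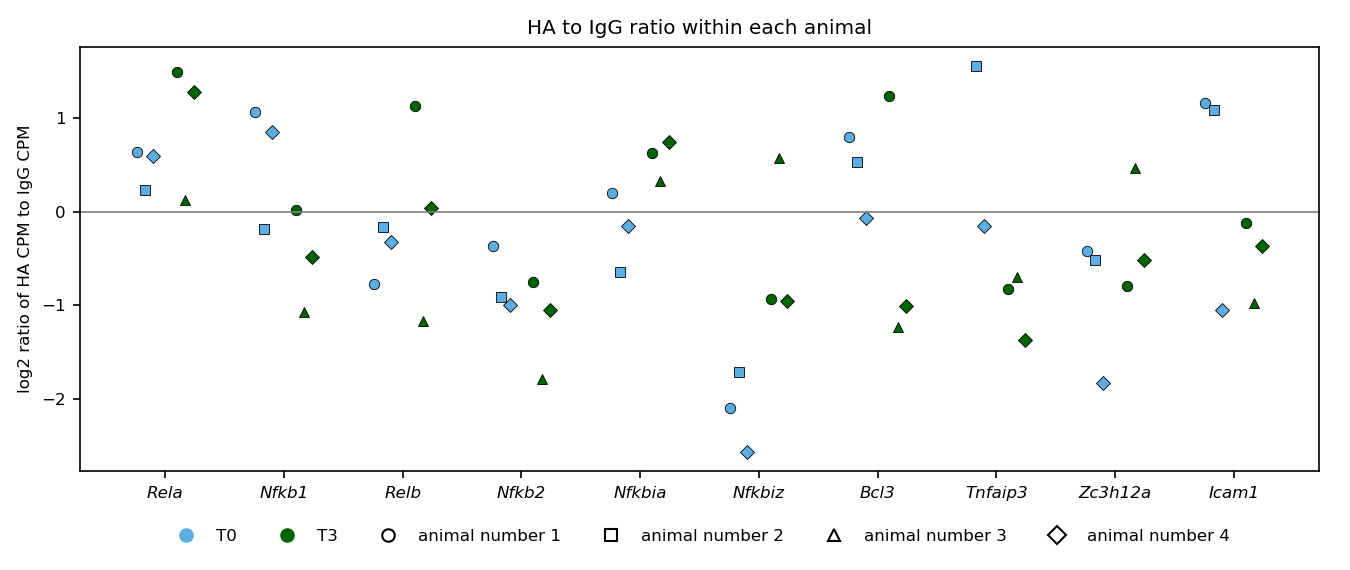
Log2 ratio of the HA level to the IgG level (both in CPM) within each animal at T0 and at T3, with 0 meaning equal levels and shapes giving the animal number. The 3 T0 points of Nfkbiz are far under 0 (ratios of 0.168 to 0.304), all 6 points of Nfkb2 lie under 0 and all 6 of Rela above it; Tnfaip3 of animal 1 at T0 has no ratio because its IgG count was 0.

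The increases in HA and in IgG were then set against each other by the interaction of antibody and time over all 12 libraries, where a positive value is a larger increase in HA. None of the 10 genes passed the threshold in edgeR, which 34 of 10314 genes did (0.33%), 31 of them positive (0.301%) and 3 negative (0.0291%). At an unadjusted p under 0.05 there were 1081 genes, 10.5% of those tested. The largest value was that of Nfkbiz, at 2.05 (SE 0.49, adjusted p = 0.0776), and with the animal block it was 1.99 (adjusted p = 0.0191). Nfkbia had 1.20 (SE 0.37, adjusted p = 0.199), and 1.17 with the block (adjusted p = 0.0422). With the block 158 genes passed, and these were the 2 that did so among the 10, while by DESeq2 80 genes passed, of which 1 was among the 10, Nfkbiz (1.90, adjusted p = 0.0341). For Rela the value was 0.81 (SE 0.36, adjusted p = 0.429) and for Nfkb1 it was -0.74 (SE 0.49, adjusted p = 0.636). The median over all genes was 0.18 with TMM scaling and -0.18 with library totals, under which Nfkbiz had 1.69 and Nfkbia 0.82, and Icam1, at 0.16 with TMM, was negative with library totals and with RLE scaling, by DESeq2 and without any one of 5 libraries, at -1.41 without IgG T0 of animal 4 (adjusted p = 0.627).

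Ratios of 2 counts within a library do not depend on the scaling, and 3 such ratios, chosen after the data had been seen, were compared by two-sided exact permutation tests, for which 3 against 3 libraries cannot go below 0.1. These tests treated all libraries as independent and did not use the pairing of HA and IgG by animal. Nfkbia counts per Rela count were 1.69, 1.87 and 1.23 in HA at T0 and 7.30, 6.76 and 7.38 at T3 (log2 difference 2.19, exact p = 0.1, no overlap). The ratio of inhibitor to subunit RNA was thus higher in every T3 library, and nearly the same in the 3 of them. In IgG it was 2.29, 3.41 and 2.08 at T0 and 13.3, 5.86 and 10.7 at T3 (log2 difference 1.90, exact p = 0.1). HA was under IgG without overlap at T0 (log2 difference -0.69, exact p = 0.1, unpaired), and the pull-downs overlapped at T3 (-0.40, exact p = 0.4).

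Rela counts per Nfkb1 count were 2.56, 2.26 and 1.74 in HA at T0 and 8.91, 4.35 and 5.90 at T3 (log2 difference 1.50, exact p = 0.1, no overlap). In IgG they were 3.43, 1.69 and 2.08 at T0 and 3.20, 1.89 and 1.74 at T3, overlapping (log2 difference -0.06, exact p = 0.8). The 2 genes of the canonical pair thus rose unequally in HA, and all HA T3 libraries were above all IgG T3 libraries (log2 difference 1.48, exact p = 0.1, unpaired). The difference of these 2 changes was not tested.

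For the noncanonical genes, Relb and Nfkb2 counts together per Rela and Nfkb1 counts together were 0.693, 0.956 and 0.492 in HA at T0 and 0.683, 0.964 and 0.812 at T3 (log2 difference 0.24, exact p = 0.6, overlapping). In IgG they were 1.61, 1.69 and 1.42 at T0 and 2.24, 2.64 and 2.62 at T3 (log2 difference 0.67, exact p = 0.1, no overlap). HA was under IgG without overlap at both times, by 1.19 on the log2 scale at T0 and 1.62 at T3 (exact p = 0.1 for each, unpaired).

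**Figure D4:**
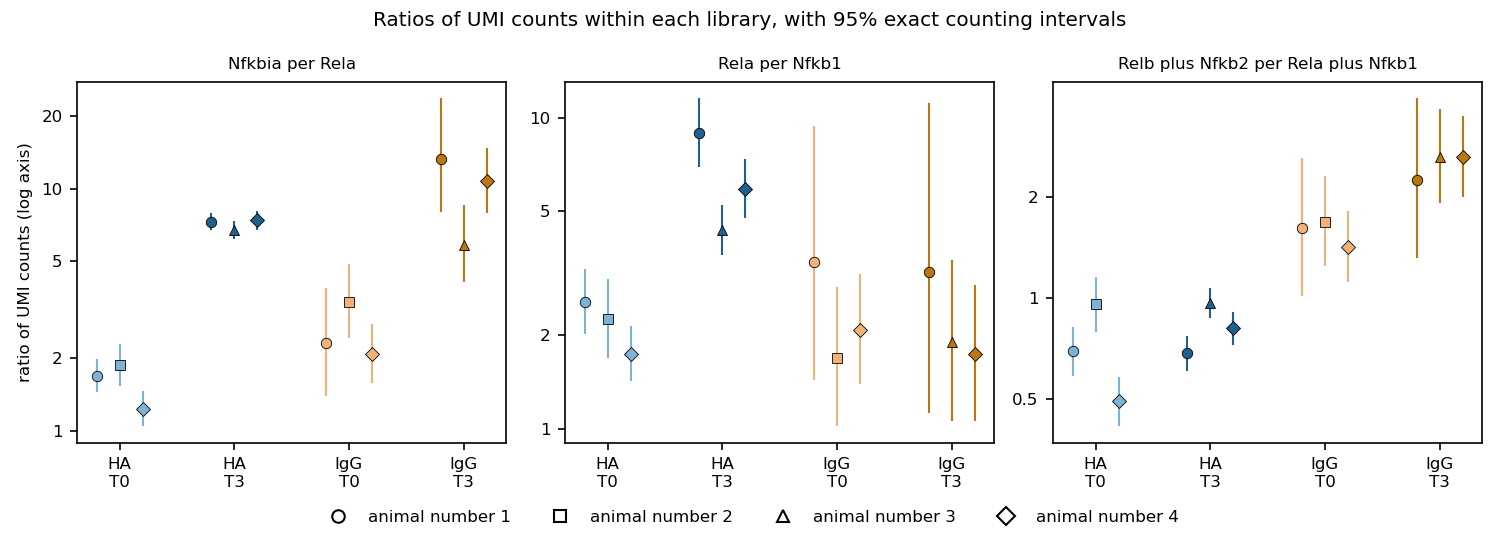
Ratios of UMI counts within each library on a log axis, for Nfkbia per Rela, Rela per Nfkb1, and Relb plus Nfkb2 per Rela plus Nfkb1, with 95% exact counting intervals as vertical lines. Rela per Nfkb1 was 1.74 to 2.56 in HA at T0 and 4.35 to 8.91 at T3 but overlapped between times in IgG, and the noncanonical ratio was under 1 in all 6 HA libraries and above it in all 6 IgG libraries.

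Other genes of the pathway moved less evenly. Of 42 listed receptors' adaptors, kinases, ubiquitin enzymes and further IkB genes, 40 were in the files and 33 were tested in HA, of which 12 were higher and 1 was lower at T3 (median log2 change 0.30), against 18.7% higher and 15.1% lower over all genes. The other IkB genes Nfkbie (log2 change 2.64, SE 0.34, adjusted p = 4.93e-06) and Nfkbib (2.04, SE 0.19, adjusted p = 3.60e-08) were among the 12. So were Bcl10, an adaptor upstream of the IkB kinase (2.13, SE 0.19, adjusted p = 1.95e-08), and Tnip1, which encodes an A20-binding inhibitor (1.75, SE 0.21, adjusted p = 1.55e-06). Tradd, the adaptor of the TNF receptor, was the lower one, at 16.8 to 24.0 CPM at T0 and 6.55 to 9.34 CPM at T3 (log2 change -1.04, SE 0.32, adjusted p = 0.0178). Its call was lost without HA T0 of animal 4 (0.0554), without HA T3 of animal 1 (0.0773), by DESeq2 (0.0565) and in the fit of all 12 libraries (0.0794). In IgG 20 of these genes were tested and 1 was higher, Tnip1 (3.07, SE 0.43, adjusted p = 5.35e-04), against 4.43% of all genes.

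Of 35 other genes that NF-kB is known to switch on, 29 were in the files. A gene was tested if its counts were high enough at either time. Genes near 0 at T0 were therefore tested only where they were high at T3, as Lif and Cxcl2 in HA and Ccl2, Cxcl2 and Cxcl10 in IgG. The list was also written with earlier results of these data known, so the shares called higher are not independent support. In HA 20 of 23 tested were higher and none was lower, against 18.7% and 15.1% of all genes tested. Their median log2 change was 3.09, against 2.95 for the 10 genes. Gadd45b, a stress-response gene, measured 65.9 to 71.8 CPM at T0 and 1898 to 2135 CPM at T3 (log2 change 5.11, SE 0.19, adjusted p = 1.74e-13). Lif, a cytokine of the IL-6 family, measured 0.697 to 3.84 CPM and 158 to 254 CPM (6.90, SE 0.38, adjusted p = 1.47e-09, and 8.01 without HA T0 of animal 1). The early-response gene Ier3 (3.75, SE 0.19, adjusted p = 8.58e-12) and the transcription factor gene Irf1 (3.08, SE 0.18, adjusted p = 6.46e-11) were also higher. In IgG 13 of 15 tested were higher, against 4.43% of all genes tested. Among them were Gadd45b (4.98, SE 0.31, adjusted p = 4.79e-07) and the chemokine genes Cxcl2 (6.64, SE 0.69, adjusted p = 3.40e-05) and Cxcl10 (4.81, SE 0.50, adjusted p = 3.78e-05). Ccl2, the chemokine for monocytes, had 3 counts in all at T0 in IgG and 165 at T3, a ratio of 290.1 between the summed counts scaled to the library totals (95% exact counting interval 97.6 to 1421). In HA it had 166 and 4389 counts (log2 change 5.83, adjusted p = 0.00186). It was above IgG at T0 (3.94, adjusted p = 0.00252) and at T3 (1.38, adjusted p = 0.00650, lost without HA T3 of animal 3). Cxcl2 (7.50, adjusted p = 2.86e-09) and Cxcl10 (4.45, adjusted p = 1.71e-04) also rose in HA. Cxcl10 was above IgG at T0 (3.17, adjusted p = 1.71e-04) and at T3 (2.58, adjusted p = 9.49e-05). None of these chemokine genes was called in the interaction. Rel, the remaining subunit gene, had no row in the count table and could not be analysed.

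Markers of other cell types moved between the times too. Of the neutrophil and monocyte list, 4 of 11 genes were in the files, and they summed to 6.27 to 16.2 CPM in HA at T0 and 22.1 to 116 CPM at T3, and in IgG to 26.4 to 39.4 CPM and 43.5 to 250 CPM. S100a8 and S100a9 were at 0 in all IgG T0 libraries, and their means were higher at T3 in both pull-downs. The other genes of this list in the files, Ccr2 and Plac8, had lower means at T3. Mean Ccr2 was 2.79 and 1.52 CPM in HA and 12.8 and 3.78 CPM in IgG at T0 and T3. Mean Plac8 was 8.62 and 2.38 CPM in HA and 22.0 and 9.93 CPM in IgG. In IgG at T3 all counts of Ccr2 and Plac8 were at or under the floor. The 12 macrophage genes summed to 669 to 1325 CPM and 395 to 694 CPM in HA, where 3 of 7 tested were lower and none was higher, and to 1478 to 1997 CPM and 1010 to 1263 CPM in IgG. The 10 endothelial genes summed to 43.4 to 75.4 CPM and 49.1 to 55.5 CPM in HA (1 of 4 tested higher) and to 95.3 to 147 CPM and 88.5 to 120 CPM in IgG. Of 11 neuronal genes tested in HA 5 were higher, of 10 smooth muscle genes 4 were lower, of 8 fibroblast genes 6 were lower, and of 5 mesothelial genes all 5 were lower, with the 6 mesothelial genes at 463 to 529 CPM at T0 and 52.8 to 54.5 CPM at T3. In IgG none of 10 neuronal and none of 10 smooth muscle genes was called, and 2 of 8 fibroblast and 4 of 5 mesothelial genes were lower. Over all genes tested with time, 18.7% were higher and 15.1% lower in HA, and 4.43% higher and 1.03% lower in IgG. Glia markers in IgG at T3 reached 1228 and 1566 CPM in animals 3 and 1 but 306 CPM in animal 4. The part of these shifts, and of the lower depth at T3, in the changes of the 10 genes was not tested.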

How the data were processed

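Ribosome-bound RNA from HA and IgG pull-downs of 6 mice was measured in 12 libraries by a bulk form of MARS-seq, a 3′ method with UMIs. What was deposited are whole UMI counts for each gene, not normalised: the authors mapped trimmed reads to mm10 with STAR 2.4.2a and counted uniquely mapped, deduplicated reads with HTSeq over the 3′ end of each gene (1000 bases upstream to 100 downstream). Genes with near-identical copies therefore lose counts. The use of strand is not given in the sources used here. The files list 12975 genes, of which 189 had no count of 5 or more, so a gene without a row may only have been low.

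Library totals were 88136 to 2870591 counts. Groups followed the titles, with the animal as the replicate. Counts were tested with edgeR 4.0.16 (quasi-likelihood F-test, robust, TMM, filterByExpr) in R 4.3.3 with Benjamini-Hochberg adjustment over all genes tested, two-sided, threshold 0.05. The 2-group comparisons used their 6 libraries and the interaction all 12, without covariates. SEs were derived from the F statistic. The procedure was tested on simulated counts drawn with the same spread for all genes and libraries and without pairing by animal. That test does not show how the procedure performs on the widely spread IgG T3 libraries. Alternatives were RLE scaling, library totals, no filter, at least 5 counts in 1 library, DESeq2 1.42.0, 1 fit to the 12 libraries together, a replicate block, and leaving out each library. HA and IgG of an animal came from 1 supernatant, and their deviations from the group means correlated at 0.247 to 0.449 in every animal (1331 genes), so the animal pairs them.

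The 10 genes, the other pathway, target and marker lists and the tests were chosen with earlier results of these data known. Named besides the 10 were, for the pathway and target lists, the up to 4 genes with the smallest p per direction among those called with time in HA or in IgG, and any called in the interaction. Promoters are RefSeq's (GRCm38.p6), and overlaps of genes come from GENCODE M21 (GRCm38). The series table and the single files held the same counts. No replicates were duplicates.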

Additional observations from a re-analysis of the deposited data

Results flagged for a closer look

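Of the genes named here, Ier3, an early-response gene from the list of other NF-kB targets, changed differently with time in the 2 pull-downs, by the test of that difference: its interaction was 1.48 (SE 0.33, adjusted p = 0.0480, edgeR). Ier3 rose from 89.8 to 103 CPM at T0 to 895 to 1279 CPM at T3 in HA and from 114 to 144 CPM to 499 to 728 CPM in IgG. The call was lost with RLE scaling (1.32, adjusted p = 0.115), with library totals (1.12, adjusted p = 0.203) and without any one of 11 of the 12 libraries (adjusted p 0.0984 to 0.213).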

How the results depend on the processing

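For T3 against T0 in HA and for HA against IgG at T0, no alternative moved the count of called genes by over 1.5 times. In IgG over time the 285 genes became 519 without a filter and 705 when all 12 libraries were fitted together, and 162 to 334 when single libraries were left out. For HA against IgG at T3 the 1578 genes became 849 to 1977 without single libraries. The 34 genes of the interaction became 20 with RLE scaling, 8 with library totals, 80 by DESeq2, 158 with the replicate block (animal), and 5 to 95 without single libraries. No called value changed direction. With the animal as a replicate block 3807 genes were called at T0 and 1608 at T3, and besides Nfkbia at T3 and Nfkbia and Nfkbiz in the interaction no call among the 10 genes changed. The label number as a block between times, which names different mice (correlation of deviations 0.0111 to 0.303), gave 3434 genes in HA and 289 in IgG, where Relb had an adjusted p of 0.0930. The depth of the IgG T3 libraries, with 5 or fewer counts for 6 of the 10 genes in at least 1 library, limits what IgG can show.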

Other observations

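The animals at T3 did not stand in the same order for all 10 genes. Animal 3 had the highest HA level for 7 of them and the highest IgG level for 6, and it was highest in both pull-downs for 5, namely Nfkb1, Relb, Nfkb2, Bcl3 and Icam1. Nfkbia and Nfkbiz were highest in animal 1 in both. Over the 7200 genes tested at T3, animal 3 was highest in HA for 36%, in IgG for 38.5% and in both for 16.4%. S100a9, a gene of neutrophils and monocytes, was highest in animal 1, at 98.2 CPM in HA and 124.8 CPM in IgG, against 16.7 and 10.9 CPM in animal 3. The last value was 1 count. The macrophage gene Cd68 was highest in animal 3, at 8.02 CPM in HA and 21.7 CPM in IgG, where all its counts were at or under the floor. Summed macrophage genes were highest in animal 3 in HA (694 CPM) and in animal 4 in IgG (1263 CPM). How these markers go with the 10 genes was not tested. At T0, animal 2 was highest in both pull-downs for 4 of the 10 genes, Relb, Nfkb2, Nfkbia and Bcl3, against 15.5% of 9823 genes.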
